A study of Mus musculus with 6 samples.

Results

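The genes described here encode 10 enzymes around the synthesis of nicotinamide adenine dinucleotide (NAD), namely Ido1, Tdo2, Afmid, Kmo, Kynu, Haao, Acmsd, Qprt, Nampt and Nmnat1. They carry tryptophan towards NAD or rebuild NAD from nicotinamide, except Acmsd, which leads away from NAD. They were taken by name, through the GENCODE M21 symbols of the Ensembl gene identifiers, from a kidney RNA-seq table of 55450 genes, and all 10 were in it. Of these, 8 had enough reads to be tested among 16592 genes, while Ido1 and Tdo2 did not. The study followed kidney injury in a mouse model of hyperuricemia-related chronic kidney disease, and kidney RNA of 3 control mice and 3 mice at day 21 was sequenced. All were wild-type male C57BL/6J mice, bought at 7 weeks of age and kept for 1 week before the experiment. The day 21 mice received adenine (0.16 g/kg) with potassium oxonate, a uricase inhibitor (2.4 g/kg), by gavage every day. The control mice carry the treatment label 20%PEG and stand for day 0 of a design with 6 mice in each group. Time and both compounds differ together between the groups, so their parts cannot be told apart, and adenine itself can injure the kidney besides raising uric acid.

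In the de novo route, a dioxygenase (IDO1, or TDO2 in liver) opens the ring of tryptophan, the formamidase AFMID releases kynurenine, and KMO, KYNU and HAAO turn it into an unstable intermediate called ACMS. ACMS either closes spontaneously to quinolinic acid, which QPRT passes on towards NAD, or is diverted by the decarboxylase ACMSD to breakdown products and picolinic acid. In the salvage route NAMPT recycles nicotinamide, and NMNAT1 makes NAD in the nucleus from the products of both routes. The kidney proximal tubule, together with the liver, is known as a main site of the de novo route, and quinolinic acid reaches the urine when QPRT is short.

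Of the tested enzymes of the de novo route, counting Acmsd, which leads away from NAD, 4 were lower at day 21. Kynu and Qprt of the same route and the salvage enzymes Nampt and Nmnat1 were not called. Haao, Acmsd, Afmid and Kmo fell by 6.52, 3.59, 2.96 and 2.93-fold, and no member was called higher. Calls required both a fold above 1.5 and an adjusted p below 0.05 (edgeR quasi-likelihood test, Benjamini-Hochberg adjustment over all genes tested). Among the 8 tested members 4 were called lower and 0 higher, whereas 35.1% of all genes tested were called, 15.5% lower and 19.6% higher. The 8 had a median of -1.04 on the log2 scale, and all tested genes together 0.03. The members' TMM-scaled CPM (counts relative to the size of the library) added up to between 719 and 802 in the control mice and to between 318 and 401 at day 21. The groups did not overlap in 5 of the 8 tested members, against 57.1% of all genes tested, 26.4% with the day 21 mice lower and 30.7% with them higher. All 5 had the day 21 mice lower.

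**Figure D1:**
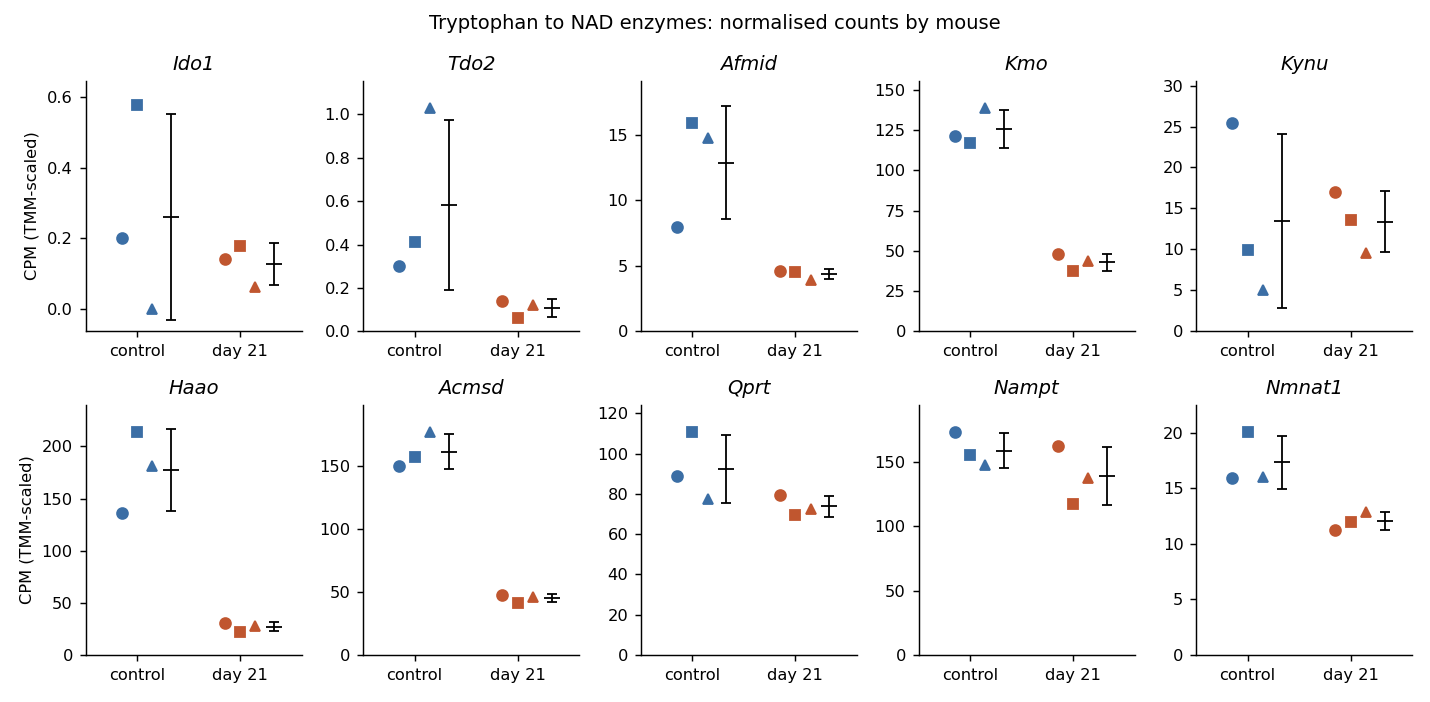
CPM after TMM scaling of each of the 10 enzymes in each mouse, in pathway order; circles, squares and triangles are replicates 1, 2 and 3 of the control (blue) and day 21 (orange) groups, the black mark and bar give the mean and SD of 3 mice, and each panel has its own axis. The day 21 mice sit below every control mouse for Tdo2, Afmid, Kmo, Haao, Acmsd and Nmnat1, and Kynu spreads from 5.05 to 25.5 CPM among the control mice.

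The libraries held between 10963849 and 14333311 counts. Kidney identity was plain in the 11 proximal tubule markers, which summed to between 15903 and 17985 CPM in the control mice and to between 3725 and 4863 CPM at day 21, and all 11 were called lower. Markers of the collecting duct (5 of 5, median log2 fold change -1.59), distal convoluted tubule (2 of 2, -1.08) and podocytes (3 of 3, -0.97) were called lower as well. Injured tubule markers (5 of 5, Havcr1 and Lcn2 among them), macrophage and leukocyte markers (8 of 8), fibroblast markers (5 of 5) and T cell markers (5 of 5) were called higher. Among all genes tested 19.6% were called higher and 15.5% lower. Other lists were mixed or called only in part, and with so few genes their counts say little beside these shares. Dendritic cell markers had 1 of 5 called higher, and of 3 neutrophil markers tested 2 were called lower. Of 3 thick ascending limb markers 1 was called higher and 1 lower, and of 5 endothelial markers 2 were called lower. In bulk kidney RNA, fewer cells of a type and less RNA per cell cannot be told apart. Control replicate 1 had the most Krt20, an epithelial keratin of injured tubules, with 160 counts beside 3 and 5 in the other control mice. Counts of the adipocyte genes Adipoq, Plin1 and Cfd summed to between 0 and 36.1 CPM in the control mice and reached at most 0.613 CPM at day 21. Scaling by library size alone, with no scaling factor, moved the all-gene median on the log2 scale to 0.42 and raised the share of higher genes among all calls from 55.8% to 81.7%.

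The 2 dioxygenases that open the route were near the limit of detection. Ido1 (chromosome 8: 24584136 to 24597009, minus strand, mm10) is the enzyme induced by interferon-gamma, and it had 2, 7 and 0 counts in the control mice and 2, 3 and 1 at day 21. A count of 3 per library was taken as the floor, and control replicate 2 alone exceeded it. Tdo2, the dioxygenase of hepatocytes, had 3, 5 and 10 counts in the control mice and 2, 1 and 2 at day 21. Its groups did not overlap (exact permutation test, two-sided p = 0.1, the smallest that 3 against 3 mice allow). With day 21 set at the floor, its mean was at least 3.03-fold lower than the control mean. Control replicate 1 was itself at the floor, and control replicate 3 had the most counts. In the edgeR quasi-likelihood fit with no filter Tdo2 was not called (log2 fold change -2.33, SE 1.13, adjusted p = 0.109). No change of Ido1 was detectable at this depth (exact permutation test, two-sided p = 0.7). Of 4 hepatocyte markers 3 were tested, and Alb (70, 92 and 61 counts in the control mice, 19, 17 and 10 at day 21) and Cyp2e1 were called lower, while Ttr was not (log2 fold change 0.05, adjusted p = 0.95). Apoa1 had 38, 13 and 7 counts in the control mice and 2, 3 and 2 at day 21. The list summed to between 864 and 1854 CPM in the control mice and to between 242 and 331 CPM at day 21. Most of this sum was Cyp2e1 (831, 1718 and 1681 CPM in the control mice), while Alb had 7.02, 7.58 and 6.29 CPM in them. The sum therefore mainly follows Cyp2e1, and the part of hepatocyte RNA in the Tdo2 values was not tested.

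Afmid, which hydrolyses formylkynurenine, had 7.92, 15.9 and 14.7 CPM in the control mice and 4.59, 4.53 and 3.92 CPM at day 21. Every day 21 mouse was below every control mouse, and the spread among the control mice (2.01-fold from lowest to highest) was wider than that at day 21 (1.17-fold). Its log2 fold change was -1.57 (SE 0.27, adjusted p = 0.000932, n = 3 in each group). In the annotation 44.2% of its exon bases are shared with Gm20708, a readthrough gene of the same strand that had 0 counts in all libraries. Reads on those bases could have been assigned to either gene or dropped, because the counting program is not given in the sources used here.

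Kmo hydroxylates kynurenine on the outer mitochondrial membrane, and kynurenine that escapes it can become kynurenic acid. It had 121, 117 and 139 CPM in the control mice and 47.7, 37.2 and 43.5 CPM at day 21. All 3 day 21 mice lay below the control range, with a log2 fold change of -1.55 (SE 0.13, adjusted p = 9.32e-06).

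Kynu, the kynureninase that splits 3-hydroxykynurenine, had no called change. It had 25.5, 9.89 and 5.05 CPM in the control mice and 17.0, 13.6 and 9.56 CPM at day 21, so the day 21 values all lay inside the control range. The control mice differed by 5.04-fold from lowest to highest, and the log2 fold change of -0.01 had a 95% confidence interval from -1.02 to 1.01 (SE 0.46, adjusted p = 0.991). Without control replicate 1 the log2 fold change was 0.80 (adjusted p = 0.0649), and without control replicate 3 it was -0.40. The control mice took the same order in Havcr1 (81, 27 and 15 counts) and Spp1 (16092, 9118 and 4979 counts), both made by injured tubules. Of the other injured tubule markers, Vcam1 (29.2, 18.6 and 16.0 CPM) and Lcn2 (7.52, 6.76 and 5.46 CPM) took this order in CPM. Krt20 did not (16.0, 0.247 and 0.515 CPM). Cfd of adipocytes took the reverse order (0, 70 and 265 counts). The part of these cells in the Kynu values was not tested.

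Haao, the dioxygenase that forms ACMS, showed the strongest decrease among the members. It had 136, 214 and 181 CPM in the control mice and 31.0, 22.4 and 28.2 CPM at day 21. The lowest control mouse was far above the highest day 21 mouse, and the log2 fold change was -2.71 (SE 0.19, 95% confidence interval from -3.12 to -2.29, adjusted p = 3.4e-06). Only 0.741% of all genes tested had a lower log2 fold change.

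Acmsd stands at the fork of the route, where its product leads away from quinolinic acid and NAD. It had 150, 157 and 177 CPM in the control mice and 47.2, 41.5 and 46.1 CPM at day 21. The groups were tight and far apart, with a log2 fold change of -1.84 (SE 0.11, adjusted p = 2.2e-06), and 2.53% of all genes tested had a lower value. Of its exon bases 3.32% are shared with the antisense gene 2900009J06Rik, whose counts also fell (log2 fold change -1.96, adjusted p = 4.98e-05), and without a stated strand setting reads from the shared bases cannot be assigned to one of them.

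Qprt commits quinolinic acid to NAD synthesis, and its change did not pass the test. It had 88.9, 111 and 77.5 CPM in the control mice and 79.6, 69.5 and 72.3 CPM at day 21. Day 21 replicate 1 lay above control replicate 3, and the log2 fold change of -0.33 (SE 0.14, 95% confidence interval from -0.64 to -0.02) had an adjusted p of 0.0797. With library size alone its log2 fold change was 0.06, below the 0.42 of all genes on that scale.

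Neither salvage enzyme passed both thresholds. Nampt, the rate-limiting enzyme of salvage, had 174, 156 and 148 CPM in the control mice and 162, 117 and 137 CPM at day 21. The groups overlapped, and the log2 fold change of -0.20 had a 95% confidence interval from -0.50 to 0.11 (SE 0.14, adjusted p = 0.267), and was 0.19 with library size alone. Nmnat1 had 15.9, 20.1 and 16.0 CPM in the control mice and 11.2, 12.0 and 12.9 CPM at day 21. All its day 21 values were below the control values, and its log2 fold change of -0.53 had an adjusted p of 0.0198 (SE 0.16), but the fold of 1.44 was short of the required 1.5. Without control replicate 1 or control replicate 3 its log2 fold change was -0.61 in both cases (adjusted p = 0.0173 and 0.0192), which passed both thresholds.

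**Figure D2:**
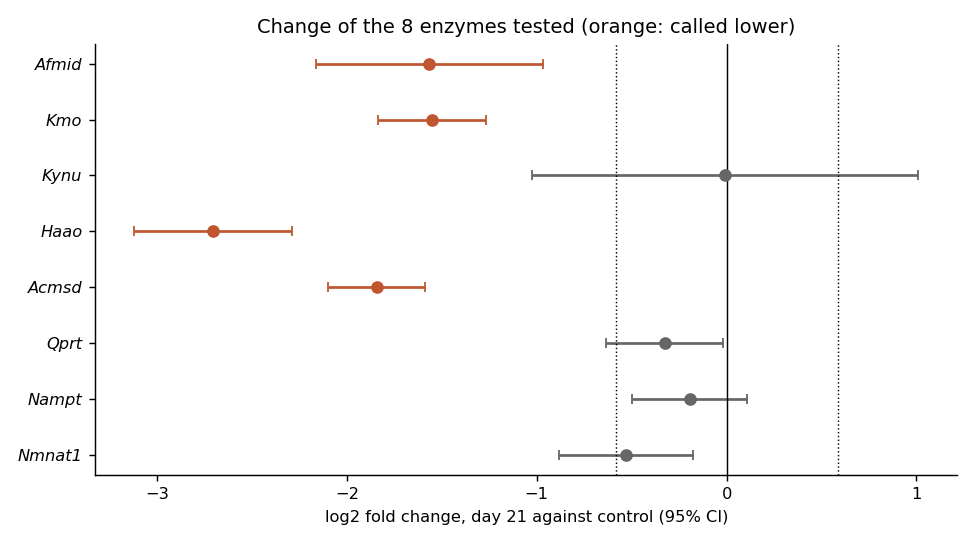
Log2 fold change at day 21 against control for the 8 enzymes tested, with 95% confidence intervals from the edgeR fit (n = 3 mice in each group) and dotted lines at a fold of 1.5 in either direction. Afmid, Kmo, Haao and Acmsd (orange) lie at -1.55 or lower, while Kynu, Qprt, Nampt and Nmnat1 (grey) lie between the dotted lines, Kynu with an interval from -1.02 to 1.01.

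On a scale that also divides by exon length (TPM), the order of the enzymes differed between the groups. In the control mice Acmsd had the highest level, 124 ± 12.9 TPM (SD, n = 3), above Haao (81.7 ± 14.5), Qprt (75.6 ± 10.6), Nampt (68.5 ± 8.10) and Kmo (57.9 ± 7.16). The values of Haao, Qprt and Nampt overlapped with those of the next in this order, whereas those of Acmsd did not. Nmnat1 (12.4 ± 1.05), Afmid (7.83 ± 2.39) and Kynu (4.83 ± 4.00) followed, of which Afmid and Kynu overlapped, and Tdo2 and Ido1 were at 0.327 and 0.299 TPM. At day 21 Qprt (87.4 ± 4.75) and Nampt (86.0 ± 12.7) led with overlapping values, followed by Acmsd (49.7 ± 2.76), Kmo (28.4 ± 3.12) and Haao (18.2 ± 2.67). Below these came Nmnat1 (12.4 ± 0.981), Kynu (6.81 ± 1.82) and Afmid (3.85 ± 0.313), with Ido1 and Tdo2 at 0.218 and 0.0868 TPM. Haao thus stood in place 2 of 10 in the control mice and in place 5 at day 21. TPM carries no TMM factor, so levels of Qprt and Nampt in TPM averaged higher at day 21 although their CPM after TMM scaling averaged lower.

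To see how the enzymes shifted against each other, ratios of counts were taken within each library, where the scaling cancels. Acmsd and Haao act one after the other on the same intermediate, and their log2 ratio was 0.14, -0.45 and -0.03 in the control mice and 0.61, 0.89 and 0.71 at day 21, a difference of 0.85. Both fell, Haao by more, and the groups did not overlap. Acmsd and Qprt take ACMS and quinolinic acid into opposite branches, and their log2 ratio went from 0.75, 0.50 and 1.19 in the control mice to -0.76, -0.74 and -0.65 at day 21, a difference of -1.53. Acmsd counts thus exceeded Qprt counts in every control mouse and were under them in every day 21 mouse. The Kynu to Kmo ratio was higher by 1.82 at day 21, and the Haao to Kynu ratio was lower by 2.95 on the log2 scale, also without overlap. Without control replicate 1 these differences were 2.46 and -3.75, and without control replicate 3 they were 1.20 and -2.38. For each of these 4 pairs the exact permutation test gave a two-sided p of 0.1, the smallest possible, and 0.15 after adjustment over the 6 pairs compared. The Nampt to Qprt ratio differed by 0.11 (exact p = 0.7, adjusted 0.7) and the Nampt to Nmnat1 ratio by 0.32 (exact p = 0.3, adjusted 0.36), both with overlapping groups.

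**Figure D3:**
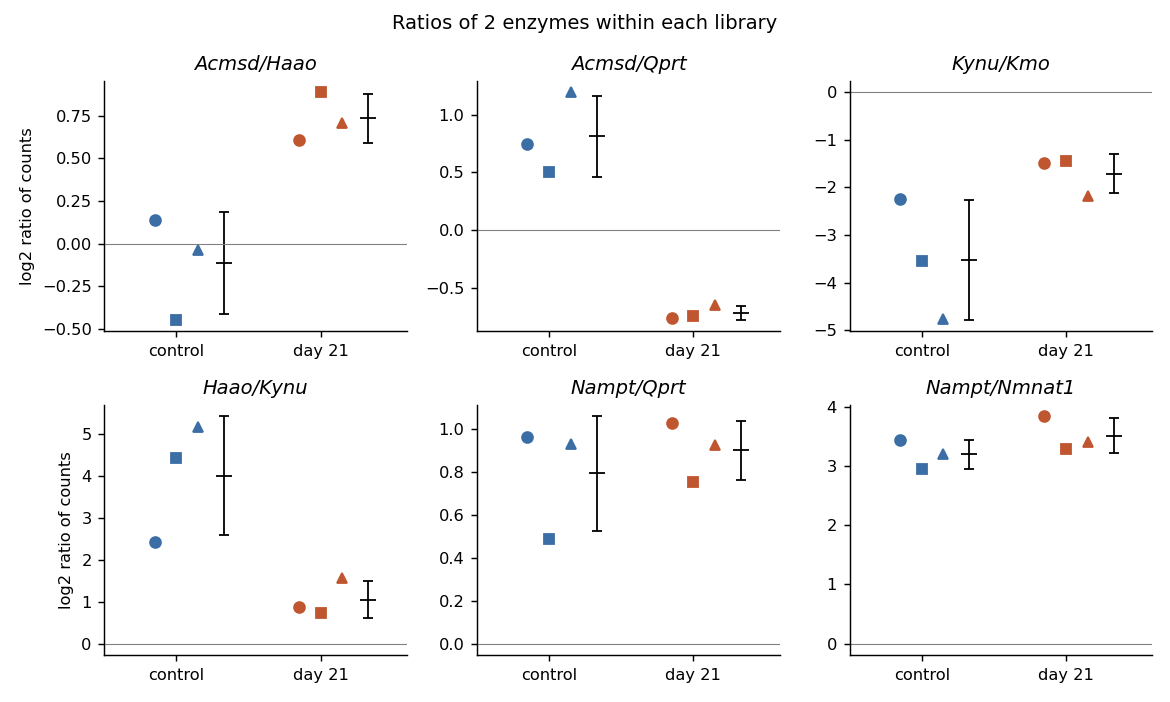
Log2 ratio of the counts of 2 enzymes within each library (pseudocount 0.5), for the 6 pairs compared; symbols as in the plot of CPM by mouse, black marks give the mean and SD of 3 mice, grey lines a ratio of 1, and the axes differ between panels. Acmsd/Qprt lies at 0.50 or higher in the control mice and at -0.65 or lower at day 21, while Nampt/Qprt and Nampt/Nmnat1 overlap.

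Because proximal tubule markers fell as well, each enzyme was also set against the mean log2 CPM of the 11 markers in its own library. That mean was 9.98 ± 0.09 in the control mice and 7.92 ± 0.20 at day 21 (SD, n = 3), a difference of -2.05. Single markers differed widely, with log2 fold changes from -3.79 (Slc7a13) to -1.37 (Slc27a2). Those of Haao, Acmsd, Afmid and Kmo lay inside this range, so their position against the mean depends on the markers averaged. Relative to it Haao was lower by 0.64 on the log2 scale at day 21, with no overlap between the groups. Acmsd moved by 0.21 with overlapping groups (exact permutation test, two-sided p = 0.2), beside an SD of 0.11 in either group. Kmo and Afmid stood 0.50 and 0.55 higher against the markers at day 21, Nmnat1 1.53, Qprt 1.74, Nampt 1.85 and Kynu 2.32 higher, all without overlap. For these 6 and for Haao the exact permutation test gave a two-sided p of 0.1 (0.114 adjusted over the 8 enzymes), the smallest possible. Because the marker mean itself changed by -2.05, a gene with no change of its own also stands higher on this scale. The separation of Nmnat1, Qprt, Nampt and Kynu here therefore says little about these enzymes themselves. The share of all genes that separate on this scale was not computed. The part of lost proximal tubule RNA in the enzymes' own values was not tested.

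**Figure D4:**
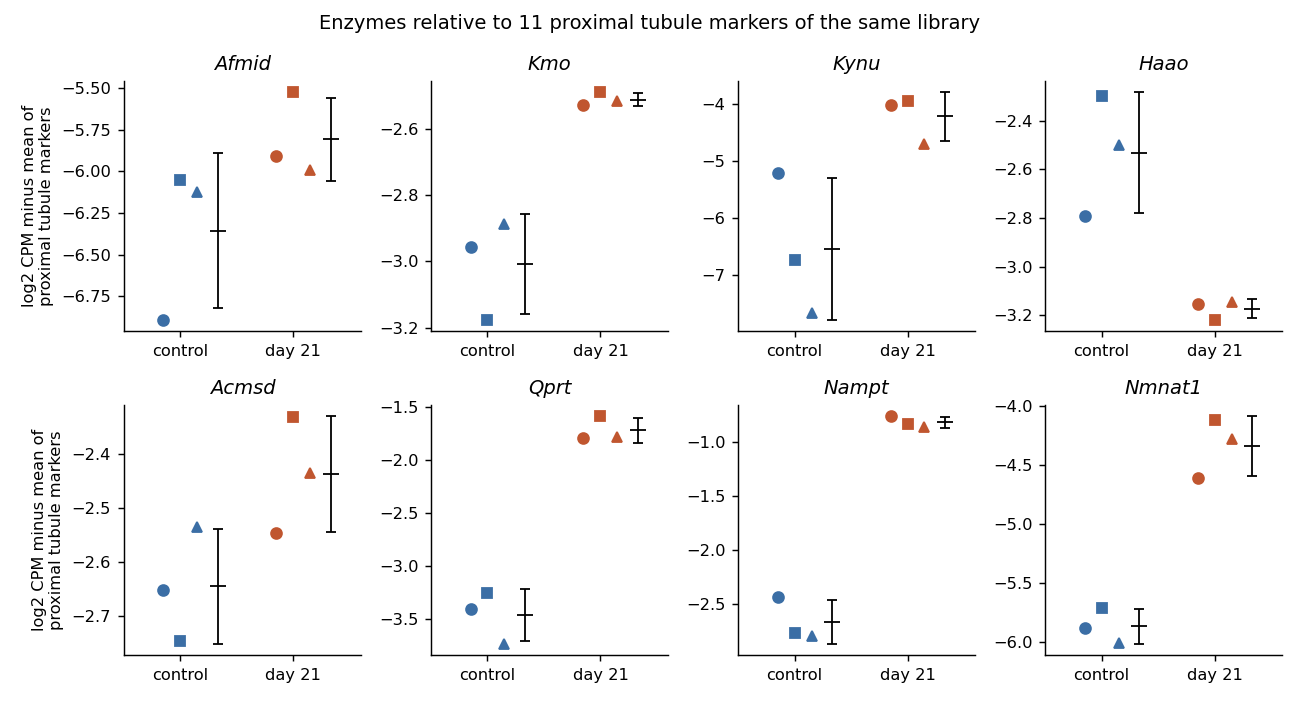
Log2 CPM of each tested enzyme minus the mean log2 CPM of 11 proximal tubule markers in the same library, with one point for each mouse, the mean and SD of 3 mice in black, and axes that differ between panels. Haao lies lower at day 21 (difference -0.64), Acmsd overlaps between the groups, and Qprt, Nampt, Nmnat1 and Kynu lie 1.53 or more higher. The marker mean itself changed by -2.05, so a gene with no change of its own also lies higher.

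The promoter of Haao, the enzyme that fell furthest, is shown beside that of Qprt, which acts at the same branch of the route and was not called. Each is the stretch of 250 bases that ends just before the RefSeq start of the gene (GRCm38.p6), read along the gene. That start lies inside the longer GENCODE models of Haao and Qprt. Capitals mark AGGTCA, the half-site of many nuclear receptors, or its reverse complement TGACCT.
Haao, chr17:83846791-83847040, minus strand: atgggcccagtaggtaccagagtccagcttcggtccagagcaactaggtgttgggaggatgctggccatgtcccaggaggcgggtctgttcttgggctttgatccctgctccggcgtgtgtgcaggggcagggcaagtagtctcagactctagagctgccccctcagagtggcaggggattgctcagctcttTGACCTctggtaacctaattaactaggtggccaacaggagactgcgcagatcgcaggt
Qprt, chr7:127122030-127122279, minus strand: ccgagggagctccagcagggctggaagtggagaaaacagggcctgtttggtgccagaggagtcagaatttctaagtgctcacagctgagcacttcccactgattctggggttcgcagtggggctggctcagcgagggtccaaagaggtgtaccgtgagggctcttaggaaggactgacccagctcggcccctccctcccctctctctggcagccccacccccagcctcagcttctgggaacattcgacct
Searched on both strands, AGGTCA stood from 58 to 53 bases before the start in Haao, and Qprt had no match. A RefSeq promoter was at hand for 8 of the 10 members, all but Kynu and Ido1, and AGGTCA was in 4 of them, against 14.0% of all 32851 promoters. These 4 include enzymes with and without a called decrease. The letters CAAAGTCCA (HNF4), GAAANNGAA (interferon response), GGNNTTTCC (NF-kB) and CACGTG (E-box) were in none of the 8, and in 0.384%, 7.13%, 4.93% and 6.02% of all promoters.

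The neighbouring enzymes of tryptophan and kynurenine metabolism fell with the de novo route. Of 9 genes 8 were tested, 7 were called lower and 1 higher, with a median log2 fold change of -1.38. Among all genes tested 15.5% were called lower. The 11 proximal tubule markers had a median of -1.89, and the part of lost proximal tubule RNA in this list was not tested. Ido2, the less active relative of Ido1, had 7.92, 11.5 and 11.2 CPM in the control mice and 1.13, 1.25 and 0.858 CPM at day 21 (log2 fold change -3.23, SE 0.28, adjusted p = 1.26e-05). Aadat, which makes kynurenic acid from kynurenine, went from 241, 355 and 435 CPM to 47.6, 40.9 and 52.2 CPM (log2 fold change -2.87, SE 0.21). Both were without overlap, as was the one exception in direction, Il4i1, an amino acid oxidase of antigen-presenting cells, with a log2 fold change of 1.38 (SE 0.46, adjusted p = 0.0333). Il4i1 rested on 8, 18 and 27 counts in the control mice and 41, 111 and 59 at day 21, and it was not called without control replicate 1 (1.04) or 2 (1.30) or without day 21 replicate 2 (0.95) or 3 (1.51). Tph1, which starts serotonin synthesis from tryptophan, was not tested, and was singled out after its values were seen: it had 0 counts in every control mouse and 10, 17 and 9 at day 21, at least 2.65-fold higher when the control mice are set to the floor of 3 counts per library. The macrophage and leukocyte markers, summed, went from between 147 and 182 CPM to between 791 and 915 CPM at day 21, and their part in the Il4i1 values was not tested.

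A list of 8 other enzymes held those that form NAD and the kinases Nadk and Nadk2, which turn NAD into NADP. Of the 8 genes 6 were tested, 3 were called lower and 0 higher, with a median of -0.55, beside 15.5% of all genes tested called lower. Nadsyn1 was the only one leading to NAD itself that was called. Naprt (log2 fold change -0.12), Nmrk1 (-0.46) and Nmnat3 (0.24), named after their values were seen, were not called. The mitochondrial NAD kinase Nadk2 fell by 1.04 on the log2 scale (SE 0.12, adjusted p = 7.47e-05). The NAD synthetase Nadsyn1 fell by 0.70 (SE 0.17) and the cytosolic kinase Nadk, named after its values were seen, fell by 0.64 (SE 0.12). Nadsyn1 was not called without day 21 replicate 2 (-0.56), nor Nadk without control replicate 2 (-0.58), and neither was called with library size alone (-0.31 and -0.25). Under that scaling 1 gene of the list was called higher, Nmnat3, and 1 lower. Of 10 transporters of tryptophan, nicotinate and NAD 9 were tested, with 8 called lower, 0 higher and a median of -1.07, against the same 15.5%. The proximal tubule markers had a median of -1.89, and the part of lost proximal tubule RNA in the transporter values was not tested. Slc6a19, the apical carrier of neutral amino acids, went from 500, 310 and 285 CPM to 82.1, 64.5 and 71.8 CPM (log2 fold change -2.33, SE 0.21). Slc5a8, which carries nicotinate and monocarboxylates, had a log2 fold change of -2.27 (SE 0.14), and the exception Slc7a5, which exchanges large neutral amino acids, had 0.40 (SE 0.26, adjusted p = 0.237). With library size alone 6 transporters were called lower and Slc7a5 higher.

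Among the genes that use NAD, calls were mostly in the higher direction for the PARP enzymes. Of 15 PARP enzymes, which consume NAD to modify proteins, 8 were called higher and 0 lower, with a median of 0.87. The 7 not called include Parp1 (log2 fold change 0.25, adjusted p = 0.115 in the edgeR test), Tnks (-0.06) and Tnks2 (-0.14), named after their values were seen. Of all genes tested, 19.6% were called higher. Parp14 had 227, 202 and 218 counts in the control mice and 2296, 1984 and 1655 at day 21 (log2 fold change 2.63, SE 0.20, adjusted p = 5.2e-06), and Parp9 had a log2 fold change of 2.17 (SE 0.15). Both are known as interferon-stimulated genes, and the macrophage and leukocyte markers given above rose in the same mice, whose part in these values was not tested. Of 7 sirtuins, NAD-dependent deacylases, 1 was called lower and 0 higher, namely the mitochondrial Sirt3 (log2 fold change -1.40, SE 0.15, adjusted p = 4.51e-05). That is 1 of 7 beside 15.5% of all genes tested called lower, a share near the background. Without control replicate 2 Sirt1 was called lower too, and with library size alone Sirt6 was called higher. Of 3 NAD glycohydrolases 2 were tested, and Bst1, of myeloid and stromal cells, was called higher (log2 fold change 1.21, SE 0.21). With 2 genes tested, this count says little beside the 35.1% of all genes tested that were called. Nnmt, which methylates nicotinamide for excretion, had 15, 4 and 15 counts in the control mice and 85, 97 and 125 at day 21 (log2 fold change 2.56, SE 0.43, adjusted p = 0.000827). It was 1 of 3 clearance enzymes called, a share near the 35.1% of all genes tested. Fibroblast markers, summed, went from between 147 and 250 CPM to between 818 and 1596 CPM, and their part in the Nnmt values was not tested.

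**Figure D5:**
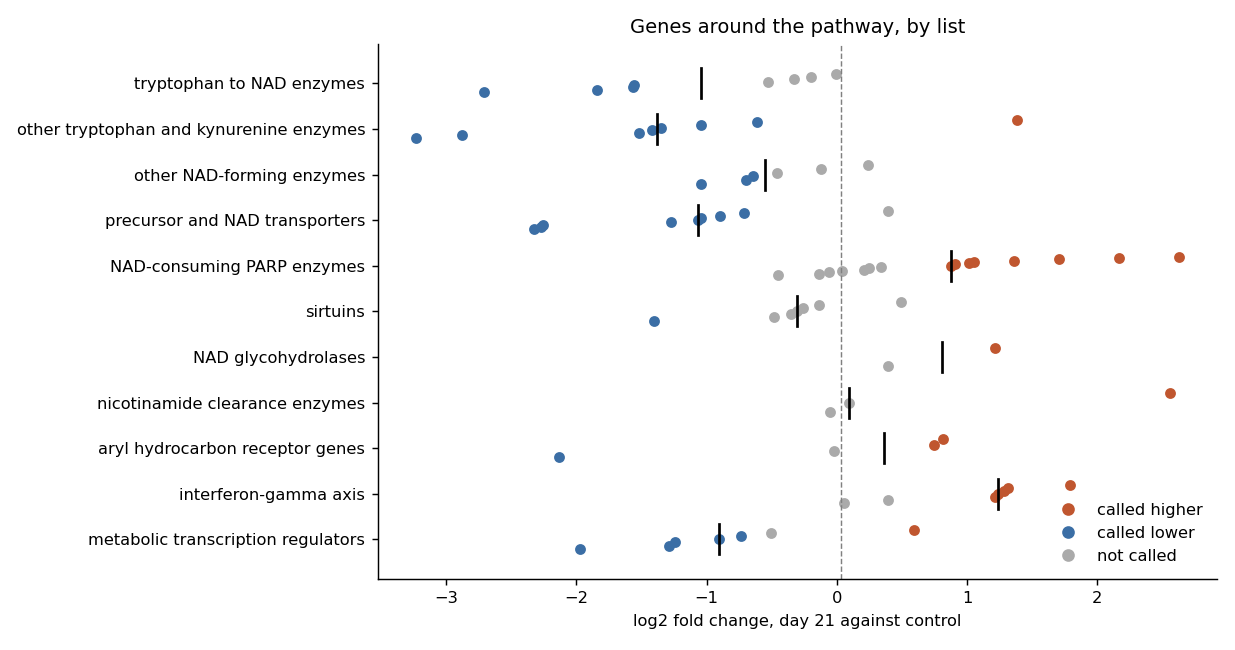
Log2 fold change of every tested gene in the enzyme set and in 10 lists around it, with one point for each gene, orange for called higher, blue for called lower and grey for not called; black bars mark each list's median and the dashed line the median of all genes tested (0.03). The 3 lists below the top row, of kynurenine enzymes, of NAD-forming enzymes with NAD kinases, and of transporters, have medians from -1.38 to -0.55. The PARP enzymes and interferon-gamma axis have medians of 0.87 and 1.23.

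The inducers of Ido1 were read as well. Of 8 genes of the interferon-gamma axis 7 were tested, 5 were called higher and 0 lower, with a median of 1.23, beside 19.6% of all genes tested called higher. The receptor chain Ifngr1 had 56.5, 40.6 and 34.5 CPM in the control mice and 103, 110.0 and 114 CPM at day 21 (log2 fold change 1.31, SE 0.17, adjusted p = 0.000126). Its groups did not overlap, and Ifngr2, Irf1 and Irf8, named after their values were seen, were among the others called. Ifng itself, also named afterwards, had 0 counts in every control mouse and 2, 1 and 3 at day 21, all at or under the floor. The same libraries held between 0 and 7 counts of Ido1. Of the 6 aryl hydrocarbon receptor genes, a receptor that kynurenine can bind, 4 were tested, 2 were called higher and 1 lower. The shares of all genes tested were 19.6% higher and 15.5% lower. Cyp1a1, its best known target, had a log2 fold change of -2.13 (SE 0.45, adjusted p = 0.00316) on 5 to 30 counts in each library. Ahr had 0.82 (SE 0.28, adjusted p = 0.0364) and Cyp1b1, named after its values were seen, 0.75 (SE 0.27, adjusted p = 0.0422). Ahr was not called without control replicate 2 (0.50) or without any 1 of the 3 day 21 mice (0.82, 0.75 and 0.88), and Cyp1b1 was not called without control replicate 1 (0.72) or 2 (0.54) or without day 21 replicate 1 (0.54) or 3 (0.67).

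Of 7 transcription regulators of tubular metabolism 5 were called lower and 1 higher, with a median of -0.90, beside 15.5% and 19.6% of all genes tested. Ppara, the receptor that drives fatty acid oxidation genes, had 97.4, 76.2 and 93.2 CPM in the control mice and 29.5, 15.4 and 23.1 CPM at day 21 (log2 fold change -1.97, SE 0.21, adjusted p = 4.23e-05). Hnf4a, a regulator of proximal tubule identity, had a log2 fold change of -1.28 (SE 0.14), and Esrra and Ppargc1b, named after their values were seen, were also called lower. Here too the part of lost proximal tubule RNA was not tested.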

How the data were processed

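Total RNA from kidney was sequenced in 2 × 150 base reads. The authors aligned reads (the submitters' processing notes name TopHat and mm10) and deposited raw read counts for each Ensembl gene; the counting program, annotation and strand setting are not given in the sources used here. Identifiers of all 55450 genes matched GENCODE M21. Members and gene lists were chosen with earlier results of these data known. All 10 members are described; from each other list the largest called rise and fall are named, with the next where more than 2 were called in a direction. Genes were filtered (edgeR filterByExpr, minimum count 10, total 15), TMM-scaled and tested with the quasi-likelihood test of edgeR 4.0.16 (R 4.3.3), with SE and 95% intervals derived from its F statistic. DESeq2 1.42.0 and limma-voom 3.58.1 were alternatives. Exact permutation tests used scipy 1.17.1. TPM used union exon length. The labels number replicates without stating their origin, so p-values measure the spread between these samples. The scripts were tested on simulated data. Some genes and sequences that the naming rule would include are not reported here.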

Additional observations from a re-analysis of the deposited data

How the results depend on the processing

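The calls of Haao, Acmsd, Afmid and Kmo held their direction and side of the threshold under all 16 alternative fits, and no member was called higher in any of them. These fits used RLE, upper-quartile or library size scaling, other filters, DESeq2, limma-voom, a replicate block, libraries without mitochondrial or the 20 highest genes, and each library left out in turn. The members called lower numbered between 4 and 5 with 1 library left out. Kynu, which was not called, changed sign with upper-quartile scaling (0.087), library size alone (0.38), no filter (0.00054), a mean of at least 50 counts (0.023), limma-voom (0.25) and the replicate block (0.21), and ranged from -0.40 to 0.80 with 1 library left out. With library size alone Qprt (0.065) and Nampt (0.19) changed sign too. Nmnat1 ranged from -0.61 to -0.41 with 1 library left out and passed both thresholds without control replicate 1 or 3. Causes of these changes were not tested. The Nampt to Qprt ratio, which was not different between the groups, ranged from -0.05 to 0.19.

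Among the lists, counts of calls moved by over 1.5 times as follows. Under stricter limits (fold above 2, adjusted p below 0.01) the NAD kinase Nadk2 alone of its list, 1 aryl hydrocarbon receptor gene and 3 metabolic regulators were called. Sirtuin calls numbered 2 with library size alone, 2 with an adjusted p under 0.05 at any fold, and between 1 and 2 with 1 library left out. NAD glycohydrolase calls numbered 2 with library size alone. Aryl hydrocarbon receptor calls ranged from 1 to 3 with 1 library left out. The labels do not say that replicate numbers pair the mice. Deviations of mice with the same number correlated by -0.02, 0.17 and 0.09, and those of mice with different numbers by between -0.18 and 0.12. With 3 mice in each group these values cannot exclude a shared batch. With the replicate block 5758 genes were called, against 5821 without it, and 4 members were called lower in either fit. Depth limits Ido1 and Tdo2, at 0 to 10 counts in a library.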
